A study of Homo sapiens with 8 samples.

Results

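Bone and cartilage share a mesenchymal origin, and the genes described here are those by which the first steps of either lineage are usually followed: the transcription factors RUNX2, SP7, DLX5, MSX2, SOX9, SOX5 and SOX6, and ALPL, IBSP and SPP1, which encode an enzyme and proteins of mineralized matrix. These 10 genes were taken by symbol. The array values analysed here hold 9 of them among 18508 genes, and SOX6 was not analysed, since no value is listed under its symbol or its RefSeq synonyms. Expression was read on Clariom S human arrays in ASC52telo cells (ADSCs), a single telomerase-immortalized line of adipose-derived mesenchymal stem cells. All cells spent 24 h without serum. The SAHA group, 3 arrays, then had 72 h of SAHA (vorinostat) at 1000 nM, the EtOH group, 2 arrays, had its ethanol vehicle, and the untreated group, 3 arrays, had neither, before 24 h in fresh medium. The labels call the cultures biological replicates. The p-values measure the spread left between cultures after differences between replicate numbers had been removed from the values. The study asked how inhibition of histone deacetylases alters these stem cells. No bone or cartilage differentiation medium is named, so the comparison concerns undifferentiated cells of 1 line.

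As background, RUNX2 sets a mesenchymal progenitor on the osteoblast path and SP7 (osterix) acts after it. The homeodomain factors DLX5 and MSX2 act on this path early, where DLX5 favours and MSX2 often restrains the osteoblast genes. SOX9 directs cells to cartilage, with SOX5 and SOX6 as its partners on cartilage matrix genes. Alkaline phosphatase (ALPL), bone sialoprotein (IBSP) and osteopontin (SPP1) follow as the matrix is laid down and mineralized.

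None of the 9 genes met the thresholds for a change in SAHA-treated ADSCs. Against the EtOH and untreated arrays combined, 0 passed in limma, which took both an adjusted p under 0.05 and a change of at least 1.5-fold, and where 0.438% of all genes were higher and 0.297% were lower. At an unadjusted p under 0.05 there was 1, MSX2, or 11.1% of the 9 beside 15.4% of all genes. By an unpaired t-test 0 passed after adjustment, where only 5 of all 18508 genes were higher and 4 lower. The methods name that test for statistics in general and limma for the arrays. With the replicate number as a block, 0 of the 9 passed and 0 had an unadjusted p under 0.05, beside 1614 of the 18508 genes. Over all genes 36 were higher and 14 lower with the block, in place of 81 and 55. The log2 fold changes lay between -0.10 and 0.24, with a median of 0.015 against -0.034 over all genes, and 5 were positive and 4 negative. For every one of the 9, the 95% interval of the fold change lay inside 1.5-fold in either direction. The lowest bound was -0.39 and the highest 0.51 on the log2 scale. Replicate differences had been removed from the values beforehand, so intervals without the block can be too narrow. With the block the bounds were -0.454 and 0.575, the latter close to the 0.585 of a 1.5-fold change. These bounds are those of the array values.

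The values are log2 expression with an unknown offset, and probe sets differ in brightness, so that levels of different genes cannot be ranked. They can be set beside genes that mark the cells. The 6 markers of mesenchymal stem cells (THY1, NT5E, ENG, CD44, ITGB1 and PDGFRB) had means between 4.19 and 8.25 over the 8 arrays. Of 26 markers of adipocytes, endothelium, blood, epithelium, osteoclasts and skeletal muscle, 25 had means between -0.29 and 0.88, and the muscle actin gene ACTA1 had a mean of 1.99. The array medians were 0.26 to 0.28 on the SAHA arrays, all below those of the controls, at 0.30 to 0.33. RUNX2 had a mean of 2.68 and was above the median on all 8 arrays. The other 8 lineage genes had means from -0.24 to 0.49, and SP7, DLX5, MSX2, ALPL, IBSP and SPP1 were below the median on all 8 arrays. Whether these values are at the background of their probe sets was not tested, and if they are, a fall could not be seen. In RNA from bulk cells, a change in few cells and a change in RNA per cell cannot be told apart.

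**Figure D1:**
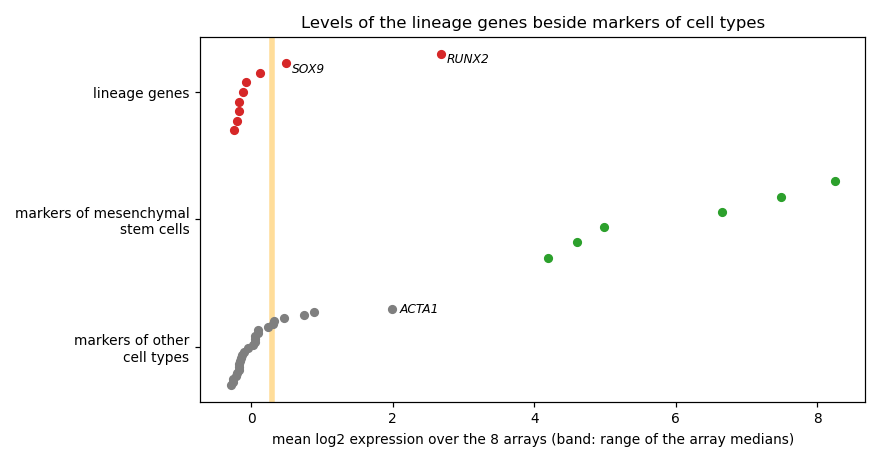
Mean log2 expression over the 8 arrays (x axis) of the 9 lineage genes, 6 markers of mesenchymal stem cells and 26 markers of other cell types. Each point is 1 gene, spread vertically within its row only to separate the points, and the band is the range of the array medians from 0.26 to 0.33. RUNX2 lies at 2.68 and the other lineage genes at -0.24 to 0.49, and the order of different genes cannot be read, since probe sets differ in brightness.

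RUNX2, the runt-domain factor needed for osteoblast formation, is transcribed from a pair of well-known promoters, a distal one that marks the osteoblast lineage and a proximal one used in other mesenchymal cells as well. The array table holds 1 value for the gene and does not separate them. Both RefSeq starts (GRCh38.p14) are shown, from 250 bases before the start to 50 after it. That of SPP1, a known target of RUNX2, is shown too. The number of matches to TGTGGT, a core that the runt domain reads, differs between these windows. Capitals mark TGTGGT or its reverse complement ACCACA, searched on both strands, and no matches overlap. Other forms of the core were not searched.
RUNX2, first start, chr6:45328080-45328379, plus strand: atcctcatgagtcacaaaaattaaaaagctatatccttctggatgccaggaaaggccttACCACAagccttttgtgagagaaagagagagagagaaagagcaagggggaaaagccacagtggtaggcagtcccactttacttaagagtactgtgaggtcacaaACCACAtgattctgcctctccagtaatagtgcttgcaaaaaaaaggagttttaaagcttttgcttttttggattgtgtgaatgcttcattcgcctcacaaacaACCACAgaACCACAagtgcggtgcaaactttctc
RUNX2, second start, chr6:45422025-45422324, plus strand: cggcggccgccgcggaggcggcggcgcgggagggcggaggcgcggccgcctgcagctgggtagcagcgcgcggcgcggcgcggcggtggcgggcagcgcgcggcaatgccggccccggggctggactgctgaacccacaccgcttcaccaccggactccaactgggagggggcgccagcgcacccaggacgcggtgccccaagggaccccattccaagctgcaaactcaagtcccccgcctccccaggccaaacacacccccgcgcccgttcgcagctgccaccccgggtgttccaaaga
SPP1, chr4:87975464-87975763, plus strand: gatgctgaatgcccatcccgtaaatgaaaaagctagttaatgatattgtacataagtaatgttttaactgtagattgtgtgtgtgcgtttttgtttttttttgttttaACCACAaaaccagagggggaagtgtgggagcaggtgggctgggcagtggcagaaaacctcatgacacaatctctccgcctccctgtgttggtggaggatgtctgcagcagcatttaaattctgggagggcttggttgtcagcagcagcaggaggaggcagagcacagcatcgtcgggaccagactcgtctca
The first RUNX2 window holds 4 matches, 191 and 87 bases before the start and 16 and 24 bases after it. The second holds 0, and the SPP1 window holds 1, 142 bases before the start. Of all 35116 RefSeq windows of this length, 13.1% hold a match. Over the 6 measured lineage genes with a window in the table (RUNX2, MSX2, ALPL, IBSP, SPP1 and SOX5, with 9 windows), 2 windows hold it. The GC box GGGCGG, which SP factors bind, is in 3 of the 9 and 45% of all windows, the homeodomain core TAATTG in 1 of the 9 and 7.38%, and the SOX core ACAAT in 4 of the 9 and 27.4%. Only the IBSP window holds both of the last 2, 201 and 189 bases before the start, and they do not overlap. A match is a string of letters and no evidence of binding.

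RUNX2 was at a log2 value of 2.51, 2.47 and 2.67 on the untreated arrays of replicates 1, 2 and 3, at 2.80 and 2.76 on the EtOH arrays of replicates 1 and 3, and at 2.72, 2.88 and 2.60 on the SAHA arrays. The SAHA arrays overlapped with the controls, and SAHA replicate 2 lay above all of them. Replicate 2 has no EtOH array, and the means of the replicate numbers are equal in each gene. The untreated value of replicate 2 therefore had to lie as far below the mean of RUNX2. Its log2 fold change against the combined controls was 0.092 (standard error, SE, 0.11, adjusted p = 0.74 in limma), with a 95% interval from -0.16 to 0.34. Both EtOH arrays were above all untreated ones, which 13.4% of all genes share, and the log2 fold change of EtOH against untreated was 0.23 (interval -0.040 to 0.51, adjusted p = 0.56). Against EtOH alone the SAHA arrays differed by -0.047 (interval -0.32 to 0.23). Against untreated the SAHA arrays differed by 0.19 (interval -0.059 to 0.43). Both intervals against untreated, that of SAHA and that of EtOH, include no change.

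SP7, the zinc-finger factor osterix that commits cells to the osteoblast fate, was at -0.25, -0.18 and 0.23 on the untreated arrays, -0.058 and -0.45 on the EtOH arrays and -0.20, -0.16 and -0.29 on the SAHA arrays. The SAHA values fell within the spread of the controls, and untreated replicate 3 was the highest. The log2 fold change was -0.079 (interval -0.39 to 0.23). DLX5, an early osteoblast homeodomain factor, was at -0.098, -0.21 and -0.35 untreated, -0.48 and -0.20 with EtOH and -0.14, -0.26 and -0.16 with SAHA. Its log2 fold change was 0.081 (interval -0.15 to 0.31), and the groups overlapped.

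MSX2 was the one lineage gene whose SAHA arrays all lay above the 5 control arrays. It was at -0.19, -0.24 and -0.085 on the untreated arrays, at -0.16 and -0.14 on the EtOH arrays, and at 0.13, 0.099 and 0.0033 on the SAHA arrays. Such a place above all controls was seen in 4.21% of all genes, and a place below all of them, which none of the 9 had, in 6.25%. As in RUNX2, the untreated and SAHA values of replicate 2 mirror each other around the mean of the gene and are not independent. The log2 fold change was 0.24 (SE 0.085, 95% interval 0.053 to 0.43), a fold of 1.18, at an unadjusted p of 0.017 and an adjusted p of 0.21 in limma, so that it did not pass. It was 0.23 against EtOH alone (adjusted p = 0.40) and 0.25 against untreated alone (adjusted p = 0.23), with 0.022 between EtOH and untreated (adjusted p = 0.96). With the replicate number as a block the log2 fold change was 0.25, with an interval from -0.044 to 0.54 and an adjusted p of 0.65. On all 8 arrays MSX2 stayed below the array median. The genes with the most similar course over the 8 arrays were CD34 (Pearson r of 0.996), UNK (0.981) and ASB17 (0.977). Differences between the replicate numbers had been removed from the values, so these arrays hold fewer independent differences than their number, and the r values are a description. CD34, a surface marker of fresh adipose stromal cells and of blood progenitors, had a log2 fold change of 0.29 (adjusted p = 0.17) and a mean of -0.030, as low as that of MSX2.

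ALPL, IBSP and SPP1, the genes of mineralized matrix, did not pass in any comparison. ALPL, the alkaline phosphatase of bone that is widely used to stain osteogenic cultures, was at -0.0070, -0.26 and 0.031 on the untreated arrays, -0.19 and -0.17 on the EtOH arrays and -0.15, 0.034 and -0.20 on the SAHA arrays. Its log2 fold change was 0.015 (interval -0.22 to 0.24). IBSP, a sialoprotein that nucleates mineral, was at 0.059, -0.19 and -0.28 untreated, -0.25 and -0.078 with EtOH and -0.32, -0.16 and -0.15 with SAHA, with a log2 fold change of -0.062 (interval -0.29 to 0.17). For both, the groups overlapped. SPP1, which encodes the secreted phosphoprotein osteopontin, was at -0.063, -0.090 and -0.19 untreated, -0.35 and -0.14 with EtOH, and -0.20, -0.32 and -0.29 with SAHA. The SAHA arrays lay below all 3 untreated arrays, as those of 13.1% of all genes did, but overlapped with EtOH. The log2 fold change was -0.10 against the combined controls (interval -0.31 to 0.11, adjusted p = 0.65), -0.16 against untreated (adjusted p = 0.47) and -0.026 against EtOH (adjusted p = 0.95).

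SOX9, the master factor of cartilage, had the widest range of the 9 genes over the arrays. It was at 0.30, 0.46 and 0.066 on the untreated arrays, 0.46 and 0.83 on the EtOH arrays and 0.71, 0.52 and 0.57 on the SAHA arrays. Both treated groups were above all untreated arrays, as were the EtOH arrays of 13.4% and the SAHA arrays of 8.86% of all genes, while EtOH replicate 1 was only just above untreated replicate 2 and EtOH replicate 3 was the highest of all. Against the combined controls its log2 fold change was 0.18 (SE 0.15, interval -0.15 to 0.51, adjusted p = 0.61 in limma). Without untreated replicate 3 it was 0.090, and without EtOH replicate 3 it was 0.28 (unadjusted p = 0.044 and adjusted p = 0.30 in limma). Against untreated it was 0.33 (interval 0.017 to 0.64, unadjusted p = 0.041 and adjusted p = 0.28 in limma), and EtOH differed from untreated by 0.37 (interval 0.025 to 0.72, unadjusted p = 0.038 and adjusted p = 0.49 in limma). Against EtOH the SAHA arrays differed by -0.044 (interval -0.39 to 0.30). The vehicle alone thus had as large a measured difference as SAHA, and neither passed. TPCN1 (Pearson r of 0.990), ST8SIA5 (0.980) and PCNT (0.979) had the courses most like that of SOX9. SOX5, a partner of SOX9 on cartilage genes, was at 0.39, -0.039 and 0.12 untreated, 0.10 and 0.054 with EtOH, and -0.12, 0.29 and 0.20 with SAHA. Its log2 fold change was -0.0018 (interval -0.28 to 0.28), which turned to 0.040 when each array was centred on its median, and the groups overlapped.

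**Figure D2:**
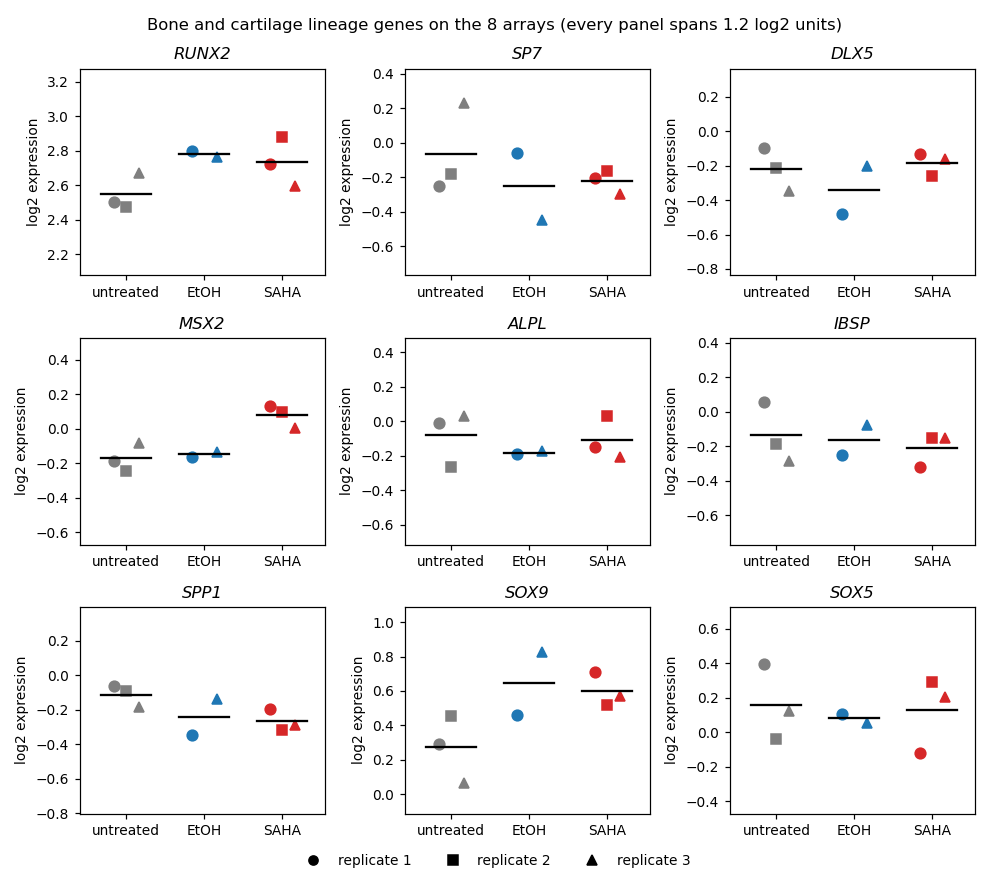
Log2 expression of the 9 lineage genes on each of the 8 arrays. Colour and position give the group, the shape gives the replicate number, each bar is a group mean, and each panel spans the same width around the mean of its gene. The SAHA arrays of MSX2 lie above all control arrays, and those of the other genes overlap with the controls.

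In the single contrasts the counts were alike. Against EtOH alone 0 of 9 genes passed, beside 0.103% of all genes in either direction, and 0 had an unadjusted p under 0.05, beside 12.9%. Against untreated alone 0 passed, beside 0.789%, and 2 (MSX2 and SOX9) had an unadjusted p under 0.05, beside 16.5%. Between EtOH and untreated 0 passed, as in all genes (0.0%), and 1 (SOX9) had an unadjusted p under 0.05, beside 9.75%. The contrasts share arrays and are not independent of each other. The 95% interval lay inside 1.5-fold for all 9 genes against EtOH, and for 8 of 9 against untreated and between the control groups, where that of SOX9 passed it upward. With the replicate block the intervals were wider, and inside 1.5-fold for 9 of 9 genes against the combined controls, 7 of 9 against EtOH, 7 of 9 against untreated and 6 of 9 between the control groups.

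**Figure D3:**
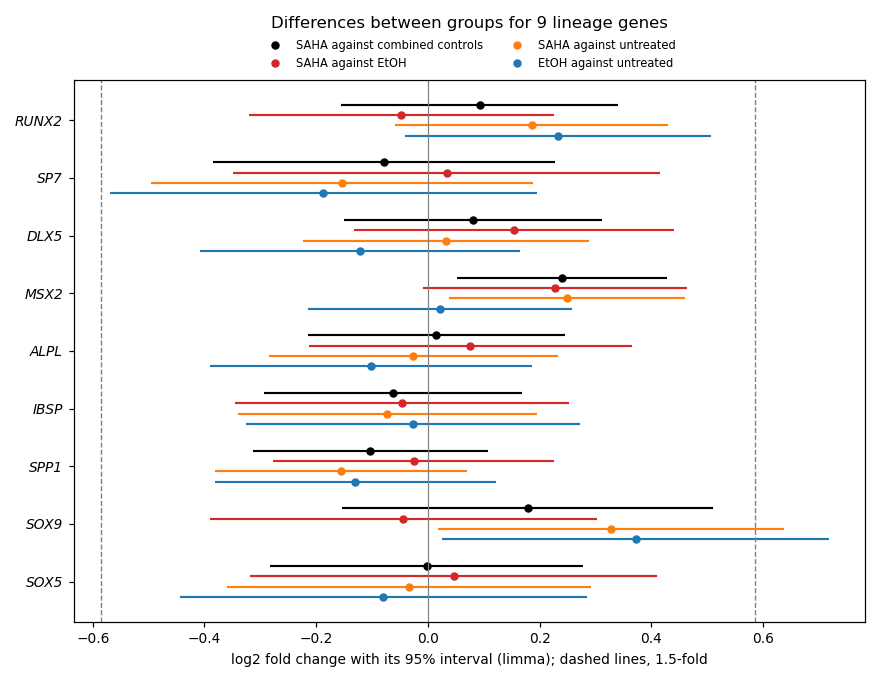
Log2 fold changes of the 9 lineage genes in 4 contrasts (x axis), with 95% intervals from limma as lines. The solid vertical line is no change and the dashed lines are 1.5-fold in either direction. Of the intervals for SAHA against the combined controls, that of MSX2 lies to the right of no change and the others cross it, and in 2 contrasts the interval of SOX9 passes 1.5-fold.

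Other genes of the skeletal lineages, listed from general knowledge, were read in the same fit of SAHA against the combined controls. Among 24 further transcription regulators of osteoblasts 0 passed in limma and 3 had an unadjusted p under 0.05, and the median log2 fold change was 0.11. Over all genes, 15.4% had such an unadjusted p in this comparison. SNAI2, a zinc-finger repressor of mesenchymal cells, met the p threshold and not the fold threshold, at 0.47 (SE 0.091, adjusted p = 0.044 in limma), a fold of 1.38. It missed that threshold with the replicate block (adjusted p = 0.27) and without any single array (0.055 to 0.20). ATF4, a factor needed for amino acid supply and late osteoblast function, was at -0.38 and LEF1, a Wnt effector, at 0.26, with adjusted p of 0.20 for both. Of 16 other SOX genes 0 passed and 3 had an unadjusted p under 0.05. SOX13, the third gene of the group that holds SOX5 and SOX6, met the p threshold at a log2 fold change of -0.55 (SE 0.11, adjusted p = 0.042), which is a fold of 1.46 and short of the threshold. Its SAHA arrays, at 2.28, 2.41 and 2.37, lay below all controls, which ranged from 2.70 to 3.11, and against untreated alone it fell by 0.62 (adjusted p = 0.041), past both thresholds. Against EtOH alone its log2 fold change was -0.45 (adjusted p = 0.22), which did not pass. The call against untreated was lost with the replicate block (adjusted p = 0.29) and without any single array (0.054 to 0.13). SOX7 was at -0.44 and SOX10 at -0.34, with adjusted p of 0.18 and 0.29. Of 6 other DLX and MSX genes 0 passed and 0 had an unadjusted p under 0.05, with DLX1 at 0.24, DLX6 at -0.18 and DLX4 at -0.083. The same counts of 0 held for the 8 other SP genes, with SP1 at 0.17, SP8 at -0.13 and SP5 at 0.088.

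Of 28 measured bone matrix, mineral and osteocyte genes, 1 rose and 0 fell. This was ENPP1, whose enzyme makes the mineralization inhibitor pyrophosphate that ALPL breaks down. It was at 2.74, 1.92 and 2.94 on the untreated arrays, 2.42 and 2.28 on the EtOH arrays and 3.55, 3.89 and 3.50 on the SAHA arrays, which were all above the controls. The log2 fold change was 1.19 (SE 0.21, adjusted p = 0.029 in limma), a fold of 2.28. The call was lost with the replicate block (adjusted p = 0.053), against EtOH alone (0.13) and untreated alone (0.069), and without any single one of the EtOH or SAHA arrays, at up to 0.098. SPARC (osteonectin) was at -0.38 and COL1A2, a chain of the main bone collagen, at -0.46, with adjusted p of 0.17 for both.

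Of 28 genes of cartilage matrix and chondrocytes, 0 rose and 1 fell, the aggrecan gene ACAN, a classical target of SOX9, which was at 2.84, 3.75 and 2.50 on the untreated arrays, 2.77 and 2.59 on the EtOH arrays and 0.45, 0.30 and 0.98 on the SAHA arrays, all of these below the controls. The difference of -2.31 on the log2 scale had an SE of 0.26 (adjusted p = 0.0039 in limma), and against EtOH alone the adjusted p was 0.074. The values of SOX9 and SOX5 did not pass in either direction, and SOX6 was not analysed. Whether the fall of ACAN is linked to these factors was not tested. SNORC, a chondrocyte proteoglycan gene, was at -0.49 and PRELP, a leucine-rich matrix protein gene, at 0.61, with adjusted p of 0.13 and 0.14. Of 24 genes of growth plate signalling 1 rose and 0 fell. NPR3, the clearance receptor that removes the growth plate signal CNP, was at 2.85, 2.95 and 2.61 untreated, 2.86 and 3.20 with EtOH and 4.07, 3.57 and 3.98 with SAHA, a log2 fold change of 0.98 (SE 0.15, adjusted p = 0.015 in limma). It did not pass without SAHA replicate 1 (adjusted p = 0.088) or SAHA replicate 3 (0.086), or against EtOH alone (0.14). SHH, which encodes a secreted ligand, was at -0.26 (adjusted p = 0.27 in limma). The summed log2 value of the 6 mesenchymal stem cell markers was 34.9 to 36.1 on the untreated, 36.0 to 36.7 on the EtOH and 36.2 to 37.4 on the SAHA arrays. Of the 6, 0 were called in limma and 3 had an unadjusted p under 0.05, beside 15.4% of all genes. Their median log2 fold change was 0.30, and the part of the summed value in these results was not tested. Values of ENPP1, NPR3 and ACAN in the controls lay above the array medians.

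**Figure D4:**
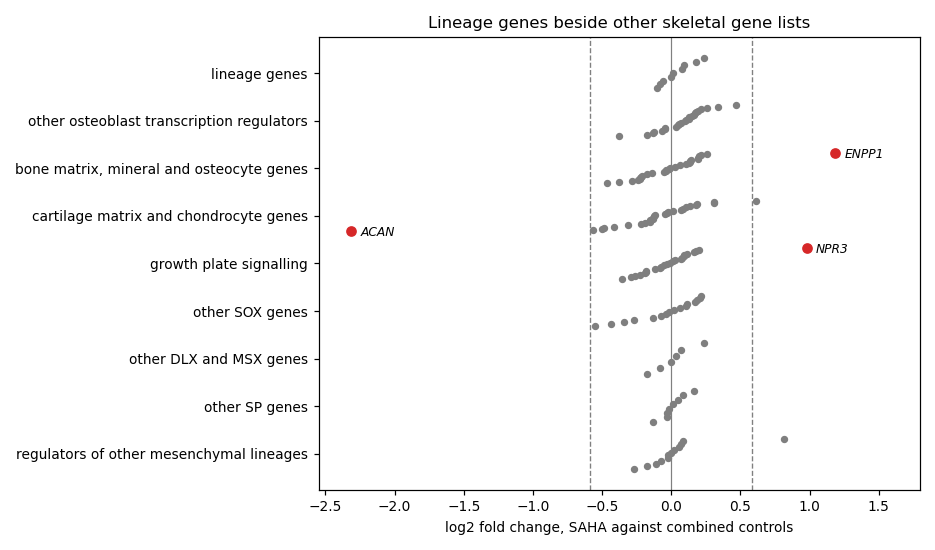
Log2 fold change of SAHA against the combined controls (x axis) for the 9 lineage genes and 8 further gene lists, 1 point for each gene, spread vertically within its row to separate the points. Genes in red passed both thresholds, that of p and that of 1.5-fold (dashed lines), and are ENPP1, NPR3 and ACAN. No lineage gene lies beyond the dashed lines.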

How the data were processed

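RNA of 8 cultures was hybridized to Clariom S human arrays. The authors summarized and normalized the arrays by RMA in the oligo package, left out 1 EtOH array of low intensity and deposited log2 expression values, 1 for each of 18508 genes. Versions and a genome build are not given in the sources used here. The means of the 3 replicate numbers were equal in all 18508 genes within 1e-10, so differences between replicates had been removed. The fit without a block counts degrees of freedom that this step used, so its p-values can be too small and its intervals too narrow.

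Without further normalization, limma 3.58.1 in R 4.3.3 compared SAHA with EtOH and untreated combined, as in the study's methods, and a fit with 3 groups gave the single contrasts. Adjusted p-values are by Benjamini-Hochberg over all genes. Calls needed a change of at least 1.5-fold besides an adjusted p under 0.05. Intervals are 95% intervals from the moderated variances. Fits were tested on simulated data. That check required that large planted changes be found and none be called in the wrong direction. It set no requirement for finding changes of 1.5-fold. Genes were chosen, and lists written, with earlier results of these data known. The text names all lineage genes, called genes of each list and, up to 3 a list, those with the smallest p, with the courses most like the 2 lineage genes of smallest p. Of the genes this rule names, 1 is not reported here. Replicate numbers are shared between groups, and the labels give replicates 1, 2 and 3 the p numbers 6, 10 and 16 in every group without saying what p is. The replicates may thus be paired, which the centred values cannot show, and the block is an alternative. The others were quantile normalization, median centring, leaving out the dimmest genes, an intensity trend, robust variances, array weights and each array left out. Equal weight of the control groups, an unpaired t-test and a fold threshold inside the test were also used. The methods name the unpaired t-test for statistics in general and not for the arrays. The number of arrays limits the precision. Promoter windows are from RefSeq.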

Additional observations from a re-analysis of the deposited data

Results flagged for a closer look

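Among the 5 control arrays of the 9 lineage genes, ACAN, ENPP1 and NPR3, 1 value stood apart. ACAN was at 3.75 on the array of untreated replicate 2, against a mean of 2.68 in the other controls. In 5 independent values, chance gives a gap of this size in about 1 in 20 sets, and 12 genes were looked at. The controls are not such values, since the replicate means are equal, so this rate does not hold for them. Replicate 2 has no EtOH array, so that with equal replicate means its untreated and SAHA values lie at equal distances on either side of the mean of the gene, and its SAHA value of ACAN was the lowest, at 0.30.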

How the results depend on the processing

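The count of lineage genes that passed was 0 in each of 4 comparisons. It was also 0 in each of the 63 values under the alternatives, the replicate block included. Few of the 18508 genes passed in any fit, at most 121 higher and 112 lower, so these counts say little about the 9 genes. Between EtOH and untreated 0 of all genes passed, in the main fit and with the block, so the count could only be 0. The lowest adjusted p of any lineage gene was 0.11, for MSX2 by the unpaired t-test. Leaving out the dimmest genes tested only 3 of the 9 (RUNX2, SOX9 and SOX5). Of 138 fold changes of single lineage genes against the combined controls, 128 kept their direction and 10 turned, in SOX5, ALPL and SP7. SOX5 was at 0.031 with quantile normalization, 0.040 with median centring, 0.090 with array weights, 0.0061 with equal weight of the control groups, and between -0.085 and 0.12 with 1 array left out, the positive values being 0.065 without untreated replicate 1 and 0.12 without SAHA replicate 1. With 1 array left out, ALPL ran from -0.055 to 0.064, negative without untreated replicate 2 (-0.021), EtOH replicate 1 (-0.0031) or SAHA replicate 2, and SP7 from -0.16 to 0.014, positive without untreated replicate 3. With 1 array left out, RUNX2 ran from 0.019 (without SAHA replicate 2) to 0.16 (without SAHA replicate 3), DLX5 from 0.028 (without EtOH replicate 1) to 0.12 (without untreated replicate 1), IBSP from -0.096 (without untreated replicate 3) to -0.0054 (without SAHA replicate 1), SPP1 from -0.15 to -0.078 and SOX9 from 0.090 (without untreated replicate 3) to 0.28 (without EtOH replicate 3). The causes were not tested. With the replicate block the log2 fold change was 0.25 for MSX2 and 0.18 for SOX9. The fold of MSX2 stayed positive in every alternative, from 0.21 to 0.28, while its unadjusted p exceeded 0.05 with the block (0.089) and without SAHA replicate 1 (0.066) or 2 (0.056). The block ended the call of ENPP1 and kept those of NPR3 and ACAN. None of the 3 passed by the unpaired t-test (adjusted p of 0.14, 0.10 and 0.073 for ENPP1, NPR3 and ACAN) or with the fold threshold inside the test (1.0, 1.0 and 0.062). Over all genes, 81 were higher and 55 lower, against 99 and 37 with median centring and 105 and 50 with quantile normalization. The counts were 121 and 112 with array weights, 36 and 14 with the replicate block and 5 and 4 by the unpaired t-test. They were 3 and 1 with the fold threshold inside the test and 20 and 10 without SAHA replicate 3. They were 35 and 14 without SAHA replicate 1, and 48 and 23 without untreated replicate 2.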

Other observations

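Regulators of other mesenchymal fates, 12 genes of adipocytes, tendon and muscle, held 0 that passed against the combined controls in limma. Of these genes 2 had an unadjusted p under 0.05, beside 15.4% of all genes, and the median log2 fold change was -0.013. The immediate-early factor EGR1, which also acts in tendon, was at 0.82 (adjusted p = 0.18), KLF5, an adipogenic factor, at -0.27 (adjusted p = 0.20) and the muscle factor MYF5 at -0.17 (adjusted p = 0.54).

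Among the 9 lineage genes, the 36 pairwise Pearson correlations over the 8 arrays ran from -0.82 (SP7 with SOX9) to 0.70 (IBSP with SOX5), with a median of -0.013. RUNX2 and SPP1 had an r of -0.72. These are descriptions over arrays whose replicate means had been removed.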
